A study of Mus musculus with 15 samples.

Results

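The genes described here are 40 genes of sterol synthesis, sterol uptake and transport, and fatty acid synthesis, out of 34432 genes listed in each of the deposited expression tables. They were chosen by name, with earlier results of these data known, and kept where both tables list them, and all 40 were found. The members fall into 4 lists, with 19 enzymes of sterol synthesis, 10 genes of SREBP control and sterol transport, 4 genes of the liver X receptor (LXR) and its targets, and 7 enzymes of fatty acid synthesis.

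Cells make cholesterol from acetyl-CoA through mevalonate, farnesyl diphosphate, squalene and lanosterol. When sterol in the endoplasmic reticulum runs low, SCAP carries the precursor of the transcription factor SREBP2 to the Golgi, where it is cut and released to switch on genes of sterol synthesis and uptake, whereas INSIG proteins hold SCAP back when sterol is plentiful. SREBP1 drives fatty acid genes in the same way, and LXR, activated by oxysterols, switches on sterol efflux.

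The cells were CT26, a mouse colon carcinoma line, and 15 libraries of mRNA were sequenced in 2 experiments. In the knockdown experiment, 3 shControl libraries (genotype given as Ctrl knockdown) were set against 3 shPrmt1 libraries (genotype given as Prmt1 knockdown). The paper describes the knockdown cells as a stable line with a doxycycline-inducible hairpin against Prmt1, delivered by lentivirus, selected with puromycin and given doxycycline for 3 days. Whether the shControl cells also received doxycycline is not given in the sources used here, so its part in a difference was not tested. In the inhibitor experiment, wild-type CT26 cells received vehicle, MS023 or GSK3368715, each a small-molecule inhibitor of type I protein arginine methyltransferases, at 6 µM for 48 h, with 3 libraries per group. The question put to the data was how expression changes when Prmt1, which places asymmetric dimethyl marks on arginine, is reduced or inhibited. Each experiment was normalized on its own, so levels were compared only within an experiment.

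The knockdown libraries held 17284091 to 29233738 reads on genes and the inhibitor libraries 40119305 to 93697833. Prmt1 stood at 5601, 5717 and 5620 normalized counts in shControl and at 669, 761 and 683 in shPrmt1, a fold of 0.125, and was not called with either inhibitor. Of 9 markers of colon epithelium, 2 were past the filter for testing in the knockdown experiment (Krt18 and Krt20). In the inhibitor experiment 5 were (Krt8, Krt18, Krt20, Cdx2 and Lgals4). Epcam was at 0 in every group, and Cdh1, Krt19 and Vil1 averaged under 10 normalized counts in every group. Of 6 fibroblast markers, 5 in the knockdown experiment and 6 in the inhibitor experiment were past the filter. The epithelial markers summed to 729 to 812 normalized counts in shControl and 544 to 670 in shPrmt1, and to 1286 to 1449 in vehicle, 1450 to 1617 with GSK3368715 and 1789 to 1879 with MS023. For the fibroblast markers the sums ran from 33737 to 38548 in shControl, 30883 to 39840 in shPrmt1, 143205 to 145150 in vehicle, 133224 to 142037 with GSK3368715 and 110604 to 131497 with MS023. Most of the sum was Col1a2, with means of 33530 in shControl and 121900 in vehicle. With MS023 Col1a1 (log2 fold change -0.52) and Col1a2 (-0.22) were called lower and Pdgfrb (0.40) higher. In the knockdown Col1a1 (0.97) and Pdgfrb (0.69) were called higher and 0 fibroblast markers lower. Of the epithelial markers, Krt8 (1.8, from a mean of 7.4 in vehicle) and Krt18 (0.55) were called higher with MS023. Krt18 was called lower in the knockdown (-0.41). With GSK3368715 1 epithelial and 1 fibroblast marker were called higher and 0 lower. The part of these shifts in the results that follow was not tested, and in bulk RNA fewer cells of a type and less RNA per cell cannot be told apart.

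Genes were compared on the scale of log2(normalized count + 1) by limma, two-sided, with Benjamini-Hochberg adjustment over all genes tested, and a gene was called where the adjusted p was under 0.05. The lists moved apart from each other in the mean over their genes. Relative to the mean of the vehicle libraries, the sterol synthesis list averaged 0.48, 0.38 and 0.46 (log2) in the MS023 libraries and 0.10, 0.06 and 0.20 in the GSK3368715 libraries. In the vehicle libraries themselves this mean ran from -0.13 in replicate 1 to 0.17 in replicate 2, with 18 of 19 genes of replicate 2 above the vehicle mean. Relative to shControl, the same list averaged -0.12, -0.20 and -0.18 in the shPrmt1 libraries, and the fatty acid list -0.38, -0.42 and -0.42.

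**Figure D1:**
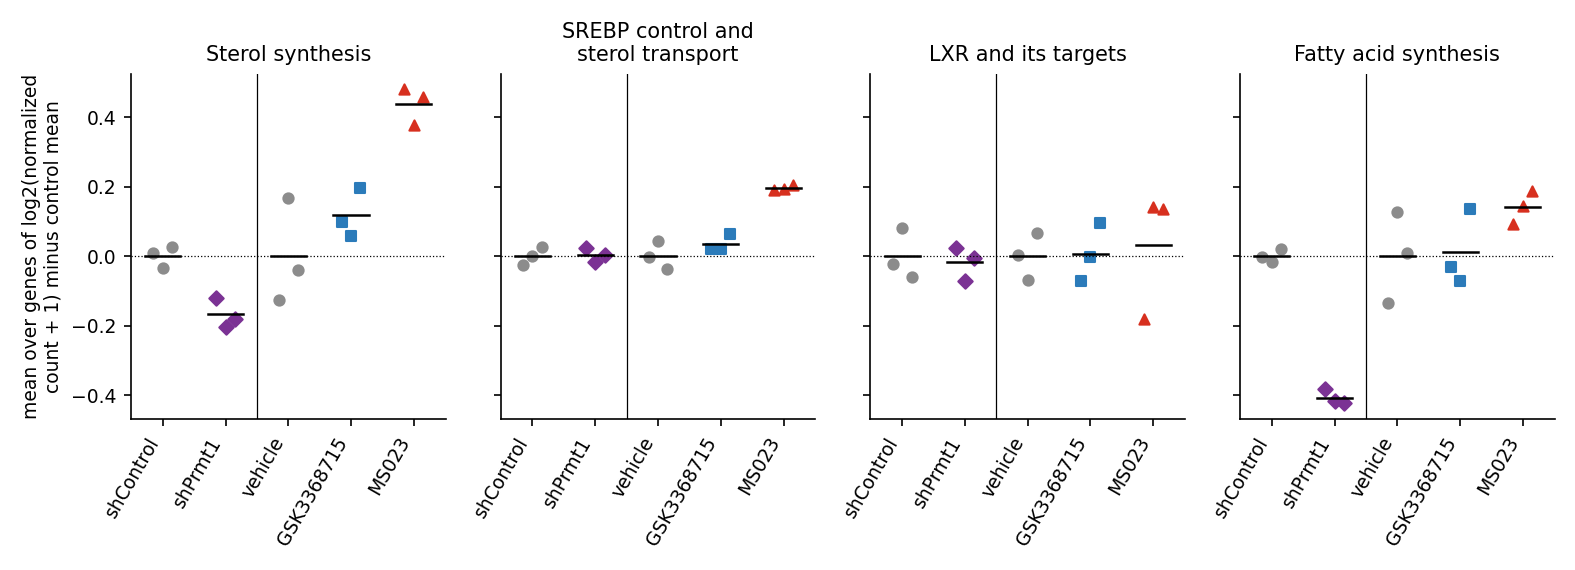
Mean over the genes of each list of log2(normalized count + 1), minus the mean of the control libraries of the same experiment (shControl or vehicle), for each library (points) with the group mean (line). The 3 MS023 libraries sit at 0.38 to 0.48 for sterol synthesis, above all 3 vehicle libraries, and the 3 shPrmt1 libraries at -0.38 to -0.42 for fatty acid synthesis, below all 3 shControl libraries.

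MS023 raised the transcripts of most sterol synthesis enzymes. Of the 19, 14 rose, none fell and all 19 had a positive log2 fold change, with a median of 0.49 (from 0.05 to 0.80) where the median over all 13014 genes tested was 0.0028. Across all genes tested 27.9% were called with MS023, 13.7% in the higher direction. For 16 of the 19, every MS023 library lay above every vehicle library, as did 22.4% of all genes tested.

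Hmgcs1 encodes the cytosolic synthase that makes HMG-CoA, the substrate for mevalonate, and it moved most in this list. It stood at 6595, 10913 and 8506 normalized counts in vehicle, 15412, 14888 and 13959 with MS023 and 10499, 9282 and 11560 with GSK3368715. The MS023 libraries lay above all others although the vehicle libraries spread widely, and the log2 fold change was 0.80 ± 0.15 (SE, n = 3 libraries per group, limma adjusted p = 0.0031). Idi1, the isomerase of isopentenyl diphosphate, showed the same spread in vehicle, at 3553, 6104 and 4559 normalized counts, against 8202, 7369 and 6563 with MS023 and 5412, 5116 and 5590 with GSK3368715. The MS023 libraries again did not overlap the others, and Idi1 rose by 0.67 ± 0.16 on the log2 scale (SE, n = 3 libraries per group, limma adjusted p = 0.01).

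Acat2, the cytosolic acetoacetyl-CoA thiolase that begins the pathway, stood at 5167, 7509 and 6155 normalized counts in vehicle, 10240, 9410 and 9654 with MS023 and 7579, 6586 and 8184 with GSK3368715. It rose with MS023 by 0.65 ± 0.12 (log2, SE). Hsd17b7, a ketosteroid reductase of the removal of methyl groups from lanosterol, stood at 611, 1037 and 771 in vehicle, 1346, 1168 and 1244 with MS023 and 953, 802 and 1075 with GSK3368715. In both genes vehicle replicate 2 was the highest and replicate 1 the lowest of the vehicle libraries, and all MS023 libraries lay above them.

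Fdft1 and Fdps had tighter vehicle libraries than the genes above and rose by less. Fdft1, squalene synthase, the first enzyme committed to sterols, stood at 4414, 4385 and 4414 normalized counts in vehicle, 6472, 6064 and 6379 with MS023 and 4804, 5026 and 5016 with GSK3368715. The 3 groups of Fdft1 did not overlap, and the rise with MS023 was 0.52 ± 0.05 (log2, SE, n = 3 libraries per group, limma adjusted p = 7.2e-05). Fdps, which makes farnesyl diphosphate, stood at 11426, 12287 and 11283 in vehicle, 16345, 16120 and 16782 with MS023 and 12054, 11626 and 13252 with GSK3368715. Its GSK3368715 libraries overlapped vehicle while its MS023 libraries stood apart, with a log2 fold change of 0.49 ± 0.06 for MS023. Sqle, the squalene epoxidase that controls flux late in the pathway, rose less, from 10995, 12708 and 11085 in vehicle to 13559, 13386 and 13530 with MS023 (0.22 ± 0.07, log2, SE), and stood at 11088, 10688 and 12305 with GSK3368715.

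The other members of the list that rose with MS023 were Mvd (log2 fold change 0.65), Nsdhl (0.64), Lss (0.61), Dhcr7 (0.53), Pmvk (0.38), Cyp51 (0.38) and Msmo1 (0.28), which act between mevalonate and cholesterol. Mvk, Ggps1, Tm7sf2, Ebp and Sc5d were not called in any comparison, with log2 fold changes from 0.05 to 0.30 for MS023. At the low end of that range were Ggps1 (0.05), which leads to geranylgeranyl groups for proteins and not to sterol, and the sterol enzyme Sc5d (0.06). The count of 14 was 12 without vehicle replicate 1, 14 without vehicle replicate 2 and 11 without MS023 replicate 1, the lowest with any library left out. Some counts could include reads of neighbours or copies. Exons of Fdps share 26.7% of their length with Gm43738 on the same strand, those of Fdft1 share 18.3% with Ctsb on the opposite strand and those of Hmgcs1 12.1% with the antisense Gm48342, and the strand setting of the counting is not given in the sources used here. Acat2 has a copy with 97.7% identity, Acat3, and adding the counts of Acat3 left its log2 fold change with MS023 at 0.65.

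**Figure D2:**
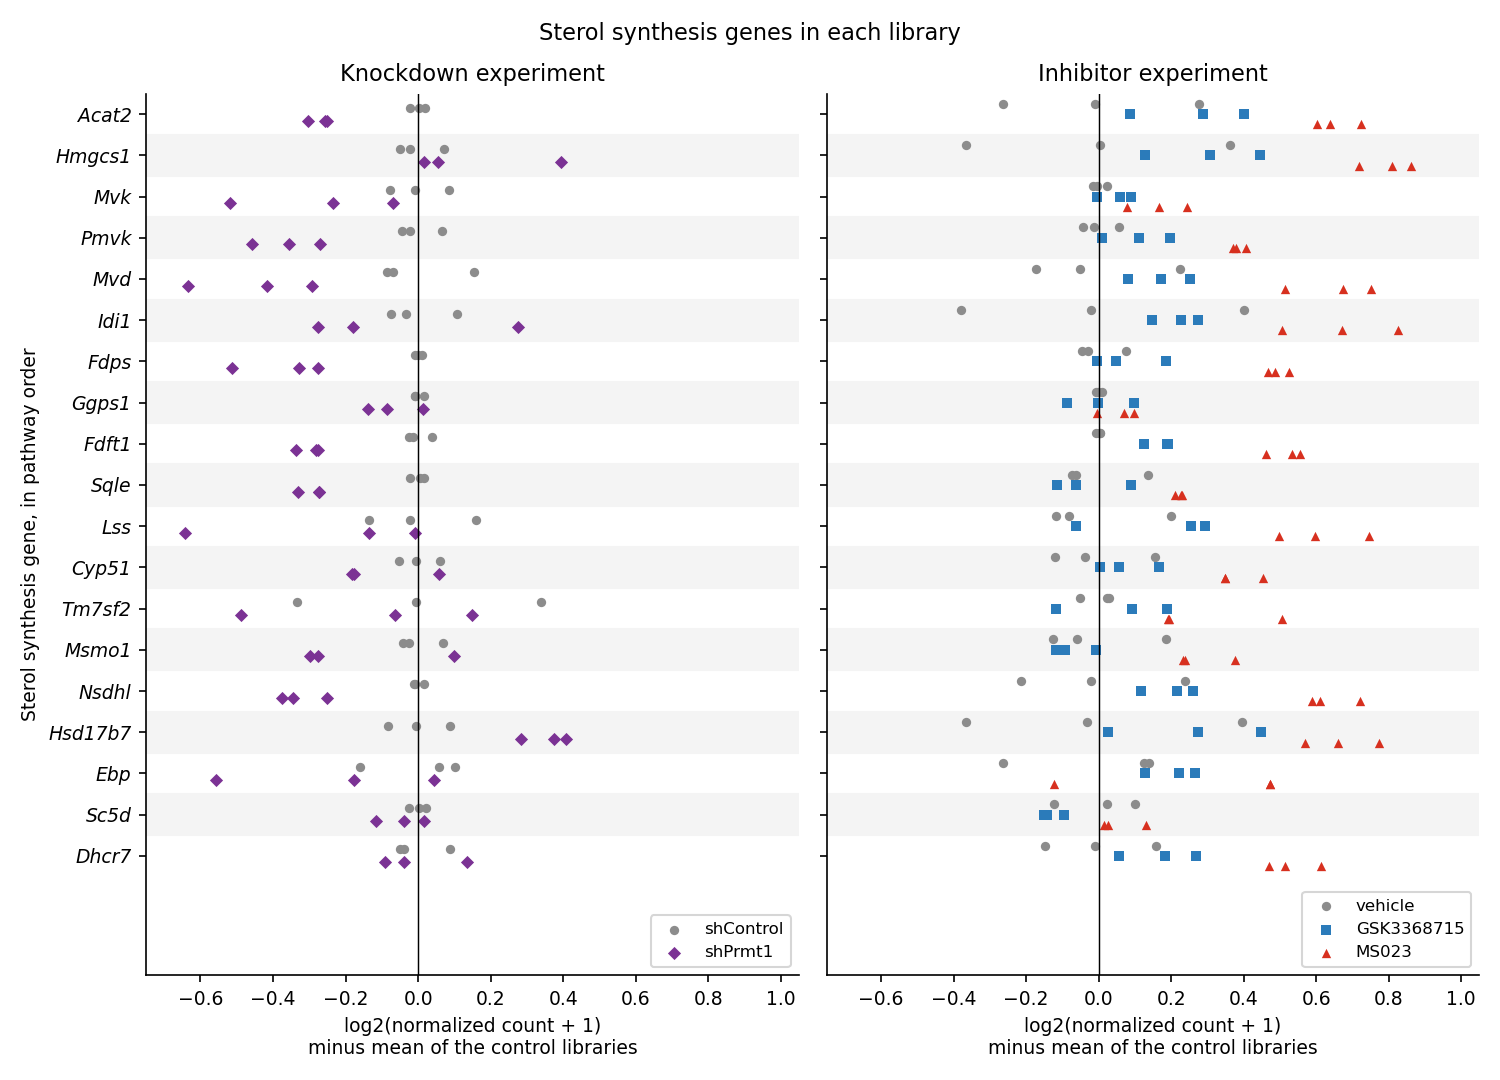
Each library's log2(normalized count + 1) minus the mean of the control libraries (x axis) for the 19 sterol synthesis genes (y axis, in pathway order), in the knockdown experiment (left) and the inhibitor experiment (right). MS023 libraries lie above all vehicle libraries for 16 of 19 genes, and shPrmt1 libraries lie below all shControl libraries for 7 of 19 and above them for Hsd17b7.

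As these genes moved together with MS023, their promoters were read from RefSeq (GRCm38.p6, from 250 bases before to 50 after the start), where 31 of the 40 members matched, 16 of them sterol synthesis genes. Motifs were searched on both strands. The letters TCACNCCAC, a form of the sterol regulatory element that SREBP binds, were found in Hmgcs1 and in no other member, and in 1.24% of all 32851 promoters. The CCAAT box, bound by NF-Y, a known partner of SREBP, was found in 15 of the 16 sterol synthesis genes (93.8%), in 7 of 8 genes of SREBP control and transport and in 2 of 4 fatty acid genes, as against 41.1% of all 27025 genes with a promoter and 43.8% of the 9699 tested in the inhibitor experiment that have one. The GC box GGGCGG was found in 14 of the 16 (87.5%) and in 67.5% of those 9699 genes, and the E-box CACGTG in 3 of the 16 (18.8%) and 11.4%. An LXR element written as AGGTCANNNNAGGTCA was found in no member and in 5 promoters of the 32851. A match describes the letters only. The stretches that follow are shown for the gene with both motifs, for the sterol genes Mvd and Nsdhl that rose with MS023 and fell in the knockdown, for Insig1, the member that rose most with MS023, and for Fasn. Each is written 5′ to 3′ on the strand of the gene, from GRCm38.p6, with motif letters in capitals (CCAAT, its reverse ATTGG, or the sterol element). Hmgcs1 is taken from chr13:119690114-119690233 (+), Mvd from chr8:122443423-122443542 (-), Nsdhl from chrX:72918401-72918520 (+), Insig1 from chr5:28071196-28071315 (+) and Fasn from chr11:120824548-120824667 (-), all upstream of the start. In Fasn a CCAAT and an ATTGG overlap by 2 bases.
Hmgcs1: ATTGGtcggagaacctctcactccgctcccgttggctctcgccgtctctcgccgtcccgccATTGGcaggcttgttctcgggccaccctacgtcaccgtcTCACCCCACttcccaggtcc
Mvd: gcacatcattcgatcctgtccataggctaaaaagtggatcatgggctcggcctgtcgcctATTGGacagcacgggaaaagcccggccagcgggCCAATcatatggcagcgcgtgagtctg
Nsdhl: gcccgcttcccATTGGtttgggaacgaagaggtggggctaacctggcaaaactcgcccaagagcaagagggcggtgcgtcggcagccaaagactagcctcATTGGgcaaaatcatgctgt
Insig1: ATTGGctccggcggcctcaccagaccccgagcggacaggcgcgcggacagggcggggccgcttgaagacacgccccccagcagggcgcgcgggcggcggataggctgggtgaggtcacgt
Fasn: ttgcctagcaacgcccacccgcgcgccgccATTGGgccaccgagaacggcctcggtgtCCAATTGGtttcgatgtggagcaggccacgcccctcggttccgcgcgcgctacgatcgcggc

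GSK3368715 at the same dose and time changed far fewer of these genes by the test. Of the 40 members, 4 were called against vehicle (3 higher, 1 lower), a share of 10% beside 9.64% over all genes tested (5.16% higher and 4.47% lower). Among the 19 sterol synthesis genes limma called 0, with 1 at an unadjusted p under 0.05, edgeR called 0 and DESeq2 called 1. Over all 13014 genes tested 3393 had an unadjusted p under 0.05, edgeR called 1242 and DESeq2 1810. Without vehicle replicate 2, the vehicle library with the highest mean level of the sterol synthesis list, 4 of the 19 were called higher and 10 had an unadjusted p under 0.05. In that fit 1274 of all 12960 genes were called (641 higher) and 3525 had an unadjusted p under 0.05. The median log2 fold change of the list was 0.16 (from -0.13 to 0.29) beside 0.0004 over all genes tested, and was 0.068 without vehicle replicate 1 and 0.10 without vehicle replicate 3. The 4 members called were Insig1, Npc2, Mylip and Tmem97, of which only Insig1 and Mylip were called without GSK3368715 replicate 2 or with the MS023 libraries left out of the fit. Hmgcs1 had a log2 fold change of 0.29 (95% confidence interval -0.03 to 0.62), and Fdft1 of 0.17 (0.06 to 0.27), with a limma adjusted p of 0.051.

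The difference between the inhibitors was tested directly, as 1 pair of compounds at 1 dose and time. Of the 40 members 3 were lower with GSK3368715 than with MS023, where 0.515% of all genes tested were called and 0.2% in the lower direction. These were Fdps (-0.42, 95% confidence interval -0.55 to -0.29, limma adjusted p = 0.02), Fdft1 (-0.35, -0.45 to -0.24, adjusted p = 0.017) and Insig1 (-0.42, -0.55 to -0.29, adjusted p = 0.02). All 19 sterol synthesis genes were lower in log2 fold change, with a median of -0.36, and for 16 of 19 every GSK3368715 library lay below every MS023 library, as did 9.95% of all genes tested. Hmgcs1 (-0.50, -0.83 to -0.18), Mvd (-0.48, -0.70 to -0.25), Lss (-0.45, -0.70 to -0.21) and Nsdhl (-0.44, -0.66 to -0.23) missed the threshold, with adjusted p from 0.086 to 0.18. The number called varied with the fit and with single libraries. DESeq2 called 15 of the 40, limma on the 6 inhibitor libraries alone 9, and limma without a trend 0. Over all genes these fits called 377, 100 and 8, beside 67 in the main fit. Without GSK3368715 replicate 1 or any MS023 library 0 members were called, without GSK3368715 replicate 2 or 3 1 was, and without vehicle replicate 1 or 2 the counts were 5 and 7, all lower with GSK3368715. Over all genes 97 and 114 were called without vehicle replicates 1 and 2, and 2 to 11 without a GSK3368715 or MS023 library.

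The sterol synthesis list went the other way in the knockdown. Over all 39 members tested 16 were called (2 higher, 14 lower), beside 14.7% of all 11485 genes tested, 7.5% higher and 7.17% lower. In sterol synthesis 7 of 19 fell, 1 rose and the median log2 fold change was -0.23, where that over all genes was -0.0036. The genes that fell were Mvd (-0.45), Fdps (-0.37), Pmvk (-0.36), Nsdhl (-0.32), Fdft1 (-0.30), Sqle (-0.29) and Acat2 (-0.27). Among the members with library values, Acat2 went from 3673, 3567 and 3627 normalized counts in shControl to 3042, 2936 and 3029 in shPrmt1. Sqle went from 5242, 5202 and 5106 to 4289, 4287 and 4117, a log2 fold change of -0.29 ± 0.05 (SE, n = 3 libraries per group, limma adjusted p = 0.0094). For both genes all shPrmt1 libraries lay below all shControl libraries.

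Other enzymes of the list did not follow. Hsd17b7 rose from 579, 515 and 543 normalized counts to 724, 664 and 707 (0.36 ± 0.08, log2, SE), the same direction as with MS023. Its call in the knockdown was lost in 5 of the fits with a library left out, and that with MS023 in 1. Hmgcs1 stood at 4933, 5260 and 4840 in shControl and 5204, 6580 and 5061 in shPrmt1, and Idi1 at 3685, 4067 and 3585 and at 3330, 4566 and 3119. In both, shPrmt1 replicate 2 was the highest library and the groups overlapped, with log2 fold changes of 0.16 (95% confidence interval -0.07 to 0.38) and -0.06 (-0.37 to 0.25). Replicate 2 of shPrmt1 was also the lowest library for Lss, at 1292 normalized counts against 1834 to 2252 in shControl, and for Ebp, at 718 against 947 to 1135. The 11 sterol synthesis genes that were not called ranged from -0.27 to 0.16.

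The number of knockdown calls dropped without any one of the control libraries. Without shControl replicate 1, 2 or 3, 3, 7 and 5 members were called, of which sterol synthesis genes made up 0, 3 and 1, and the counts over all genes also dropped, from 1684 to between 652 and 883. The log2 fold changes of the 7 sterol synthesis genes that fell then lay between -0.49 and -0.26, with adjusted p from 0.044 to 0.12. Without shPrmt1 replicate 2, 22 members were called (4 higher, 18 lower), and the count over all genes rose from 1684 to 2472. Acly, Fasn and Scd2 were called in every such setting.

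Of the members, 9 fell in the knockdown and rose with MS023, namely Acat2, Pmvk, Mvd, Fdps, Fdft1, Sqle, Nsdhl, Acly and Scd1, and 3 were called in the same direction in both, namely Hsd17b7, Npc2 and Tmem97. The 9 were 75% of the 12 members called in both comparisons. Of the 9, only Acly kept its knockdown call in every alternative fit, and none kept both calls. With MS023 the calls of Acat2, Pmvk, Mvd, Fdps, Fdft1 and Nsdhl held in every alternative fit. Those of Sqle, Acly and Scd1 were lost in 5, 6 and 4 of the fits with a library left out. Over all genes, 924 were called in both, of which 29 (3.14%) were lower in the knockdown and higher with MS023, the 9 members among them, and 870 (94.2%) went the same way. The comparisons use separate control libraries. Treatment time, puromycin selection, doxycycline (given to the shPrmt1 cells) and library depth differ between the experiments. Their part cannot be told apart from the agent.

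Of the 10 genes of SREBP control and sterol transport, 4 rose and 1 fell with MS023, 2 rose and 1 fell with GSK3368715, and 1 rose and 1 fell in the knockdown, shares of 50%, 30% and 20% called beside 27.9%, 9.64% and 14.7% over all genes tested. Insig1, which retains SCAP in the endoplasmic reticulum and is itself a target of SREBP, had the largest rise of any member with MS023 (chromosome 5, 28071363 to 28078662, + strand, mm10). It stood at 7270, 7114 and 7179 normalized counts in vehicle, 13030, 13125 and 12613 with MS023 and 9311, 10596 and 9107 with GSK3368715. The 3 groups did not overlap, and the log2 fold changes were 0.85 ± 0.06 for MS023 (SE, n = 3 libraries per group, limma adjusted p = 2.1e-05) and 0.42 ± 0.06 for GSK3368715 (adjusted p = 0.0027). In the knockdown it stood at 2316, 2310 and 2403 in shControl and 2459, 2767 and 2487 in shPrmt1, a log2 fold change of 0.13 (95% confidence interval -0.02 to 0.29) that was not called.

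The transcripts of the SREBPs themselves were not called in any comparison. Srebf2, which encodes SREBP2, stood at 14780, 15307 and 14878 normalized counts in vehicle, 15656, 16321 and 17362 with MS023 and 14995, 14448 and 16363 with GSK3368715, with log2 fold changes of 0.13 (0.00 to 0.26) and 0.02 (-0.11 to 0.15). In the knockdown it went from 5375, 4883 and 5491 to 5020, 4133 and 4947. Srebf1 stood at 7021, 6590 and 6282 in vehicle, 7565, 7397 and 6967 with MS023 and 7060, 6272 and 6652 with GSK3368715, and at 1461, 1727 and 1706 in shControl and 1535, 1561 and 1532 in shPrmt1. Their groups overlapped in every comparison except Srebf2 with MS023, where all MS023 libraries lay above vehicle. Activity of these factors is set by cleavage and was not measured. Scap, Insig2 and Soat1, the last of which esterifies cholesterol, were likewise called in no comparison.

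Of the sterol carriers, Npc2 rose in all 3 treated groups and Npc1 and Stard4 with MS023. Npc2, which hands cholesterol to NPC1 inside the lysosome, stood at 8471, 7457 and 7722 normalized counts in vehicle, 10811, 11246 and 11584 with MS023 and 8960, 9990 and 9321 with GSK3368715, and the groups did not overlap. It rose by 0.51 ± 0.06 with MS023, 0.26 ± 0.06 with GSK3368715 and 0.33 ± 0.08 in the knockdown (log2, SE, n = 3 libraries per group), where it went from 2433, 2377 and 2405 to 3274, 2691 and 3147. The calls of Npc2 with GSK3368715 and in the knockdown were lost in 4 and 5 of the fits with a library left out, that with MS023 in none of them. Npc1 rose with MS023 (0.20), and had log2 fold changes of 0.09 with GSK3368715 and 0.25 in the knockdown, neither called. Stard4, a soluble sterol carrier, rose with MS023 by 0.35 ± 0.10, from 4967, 6967 and 5807 in vehicle to 7645, 7431 and 7261, and stood at 6296, 6236 and 6588 with GSK3368715 and, in the knockdown experiment, at 3288, 3346 and 3247 in shControl and 2810, 3399 and 2906 in shPrmt1. Its MS023 libraries lay above all vehicle libraries, while shPrmt1 and shControl overlapped. The MS023 calls of Npc1 and Stard4 were lost in 5 and 4 of the fits with a library left out.

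Tmem97, the sigma-2 receptor, which binds NPC1, was the member that fell in all 3 treated groups. It stood at 3449, 3675 and 3357 normalized counts in vehicle, 3096, 2843 and 3009 with MS023, 2903, 2525 and 2998 with GSK3368715, 1837, 1850 and 1832 in shControl and 1523, 1410 and 1556 in shPrmt1. No treated library reached a control library of its experiment. The log2 fold changes were -0.23 ± 0.07 with MS023, -0.32 ± 0.07 with GSK3368715 and -0.30 ± 0.06 in the knockdown (SE, n = 3 libraries per group, limma adjusted p = 0.038, 0.022 and 0.019). MS023 and GSK3368715 share the vehicle libraries in these comparisons. The call with MS023 was lost without any 1 of the vehicle or MS023 libraries, that with GSK3368715 without vehicle replicate 2 or GSK3368715 replicate 2, and that in the knockdown without any shControl library, and the log2 fold changes then ran from -0.30 to -0.19.

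Of the LXR genes, Mylip, the ubiquitin ligase IDOL that marks lipoprotein receptors for breakdown, rose with both inhibitors. It stood at 1189, 1108 and 1095 normalized counts in vehicle, 1581, 1635 and 1566 with MS023 and 1549, 1636 and 1426 with GSK3368715. Neither treated group overlapped vehicle, and the log2 fold changes were 0.50 ± 0.07 and 0.44 ± 0.07 (SE, n = 3 libraries per group, limma adjusted p = 0.0006 and 0.0042), with a difference between the inhibitors of -0.06 (95% confidence interval -0.21 to 0.10). In the knockdown it went from 292, 285 and 273 to 352, 337 and 355, a log2 fold change of 0.30 with an adjusted p of 0.055.

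Nr1h2, which encodes LXR beta, fell in the knockdown from 938, 931 and 888 normalized counts to 745, 569 and 733 (-0.44 ± 0.11, log2, SE, limma adjusted p = 0.033), with shPrmt1 replicate 2 the lowest library. With the inhibitors it overlapped vehicle, at 4324, 3475 and 3839 in vehicle, 4033, 4281 and 4495 with MS023 and 4359, 4051 and 3861 with GSK3368715. The efflux pumps that LXR switches on were not called. Abca1 stood at 2872, 4283 and 4035 in vehicle, 3322, 4040 and 3885 with MS023 and 3510, 4133 and 4100 with GSK3368715, and at 663, 849 and 692 in shControl and 760.2, 852 and 723 in shPrmt1, overlapping throughout. Abcg1 was near the filter, at 34.7 to 49.5 normalized counts in vehicle and 19.4 to 40.2 with the inhibitors, and was too low to be tested in the knockdown. The median log2 fold change of the 4 LXR genes was 0.08 with each inhibitor, and 1 of the 4 was called in each of these comparisons, a share of 25% beside 27.9% with MS023 and 9.64% with GSK3368715 over all genes tested. With MS023 this median ran from 0.035 without vehicle replicate 1, where 2 were called, to 0.15 without MS023 replicate 1, and was 0.054 and 0.05 without MS023 replicates 2 and 3. With GSK3368715 it was 0.035 without vehicle replicate 1.

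**Figure D3:**
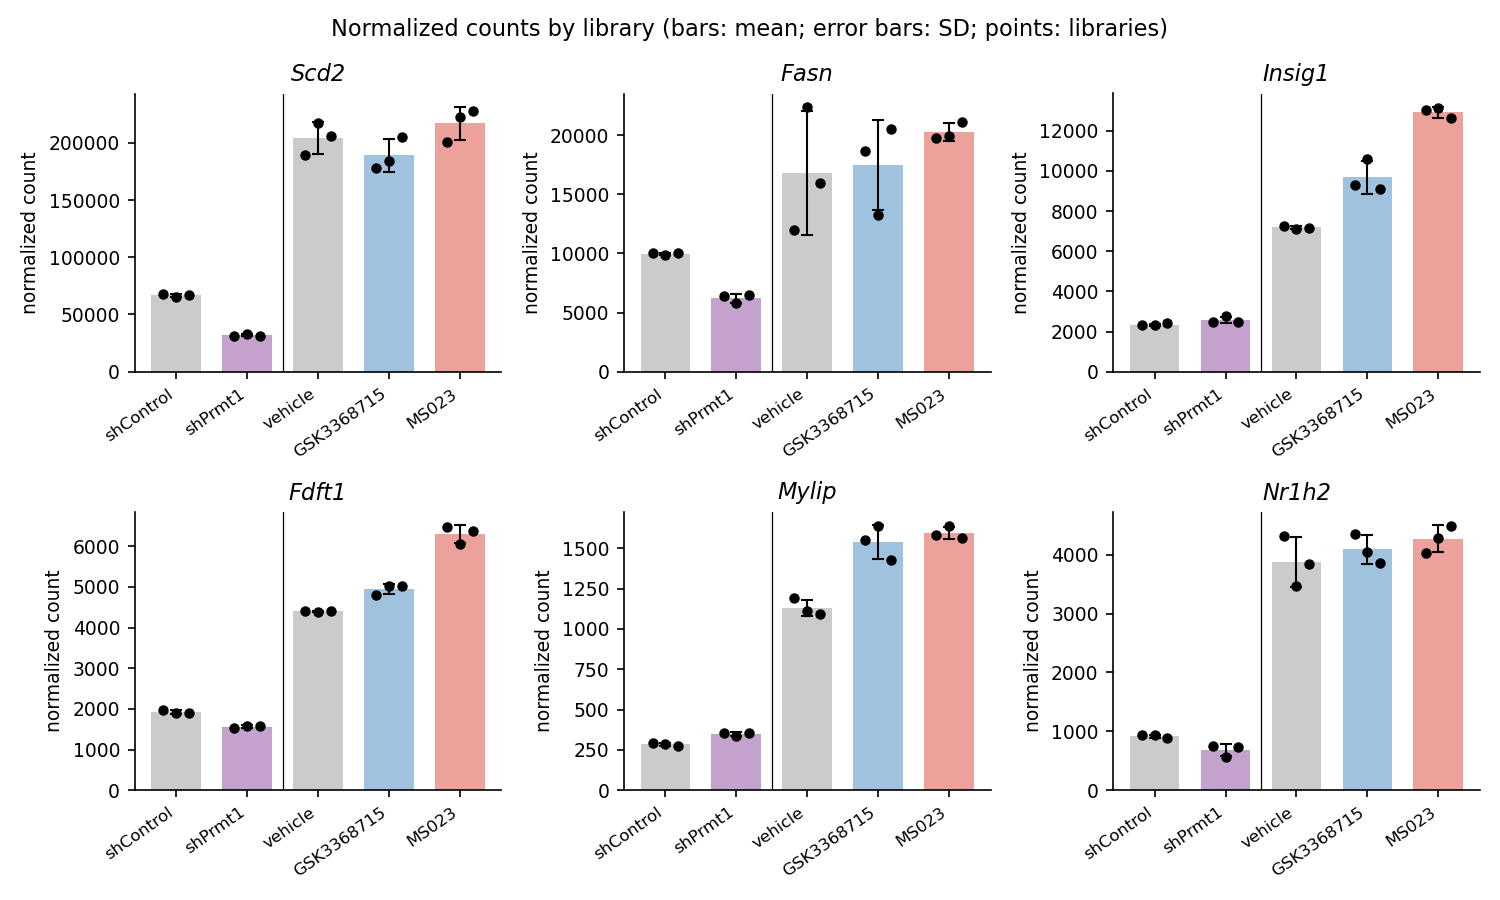
Normalized counts (y axis, linear from 0) of Scd2, Fasn, Insig1, Fdft1, Mylip and Nr1h2 in each library (points), with the group mean (bar) and SD (error bar, n = 3); the vertical line separates the experiments, which were normalized separately. Scd2 falls from 65105 to 67648 in shControl to 31136 to 33296 in shPrmt1, and Insig1 and Fdft1 step up from vehicle to GSK3368715 to MS023 without overlap.

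The fatty acid genes held the largest fall of any member, in the knockdown. Of 7 genes 5 fell and none rose, beside 7.17% of all genes tested that were called lower, and the median log2 fold change was -0.32 beside -0.0036 over all genes. Scd2, a stearoyl-CoA desaturase that places the double bond in oleate (chromosome 19, 44293674 to 44306864, + strand, mm10), stood at 67648, 65105 and 67013 normalized counts in shControl and 31383, 33296 and 31136 in shPrmt1. The groups stood far apart, a log2 fold change of -1.06 ± 0.05 or a fold of 0.479 (SE, n = 3 libraries per group, limma adjusted p = 3e-05). In the controls of both experiments Scd2 was also the most abundant of the 40 members per kilobase of exon, at 12190 normalized counts per kilobase in shControl and 37370 in vehicle, ahead of Scd1 at 4725 and 14750.

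Fasn, the fatty acid synthase, went from 9999, 9850 and 10041 normalized counts to 6375, 5783 and 6484 in the knockdown, a log2 fold change of -0.68 ± 0.06 (SE, n = 3 libraries per group, limma adjusted p = 0.00036). Acly, which splits citrate to cytosolic acetyl-CoA, went from 7347, 7687 and 7565 to 6286, 5745 and 5868 (-0.34 ± 0.06), and Scd1 from 23575, 22808 and 22965 to 18272, 19556 and 17784 (-0.32 ± 0.06). No shPrmt1 library of these 3 genes reached a shControl library. Fads2, the delta-6 desaturase, fell by 0.26 on the log2 scale, and Fads1 and Acaca were not called, at -0.14 and -0.06.

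With the inhibitors the fatty acid genes moved little. With MS023 2 of 7 rose, a share of 28.6% near the 27.9% over all genes tested, and the median log2 fold change was 0.09. Without vehicle replicate 2 the count was 3 and the median 0.17, and the median was 0.14 without MS023 replicate 1 and 0.053 without MS023 replicate 3. Scd1 rose by 0.23 ± 0.07 (log2, SE, limma adjusted p = 0.03), from 68329, 74146 and 74052 normalized counts in vehicle to 78246, 89007 and 87455, and Acly by 0.18 ± 0.06 (adjusted p = 0.039), from 15191, 17242 and 15843 to 18387, 17906 and 18399. The MS023 libraries of both lay above all vehicle libraries, but neither call held without vehicle replicate 1 or 3 or without MS023 replicate 2 or 3.

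Scd2 stood at 189032, 217530 and 206033 in vehicle, 200978, 222693 and 227997 with MS023 and 178244, 183995 and 205449 with GSK3368715, with overlapping groups. Its log2 fold changes were 0.09 (95% confidence interval -0.09 to 0.27) and -0.11 (-0.29 to 0.07), intervals that exclude a fall of the size seen in the knockdown. Fasn spread most in vehicle, at 12013, 22395 and 15977, against 19769, 19899 and 21111 with MS023 and 18680, 13236 and 20536 with GSK3368715, so that its interval with MS023 ran from -0.13 to 0.76. With GSK3368715 none of the 7 was called by limma, edgeR or DESeq2. By limma 0 of the 7 had an unadjusted p under 0.05, beside 3393 of all 13014 genes tested. Scd1 stood at 66998, 72693 and 76225 and Acly at 16919, 16007 and 17651 with this inhibitor, both overlapping vehicle.

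**Figure D4:**
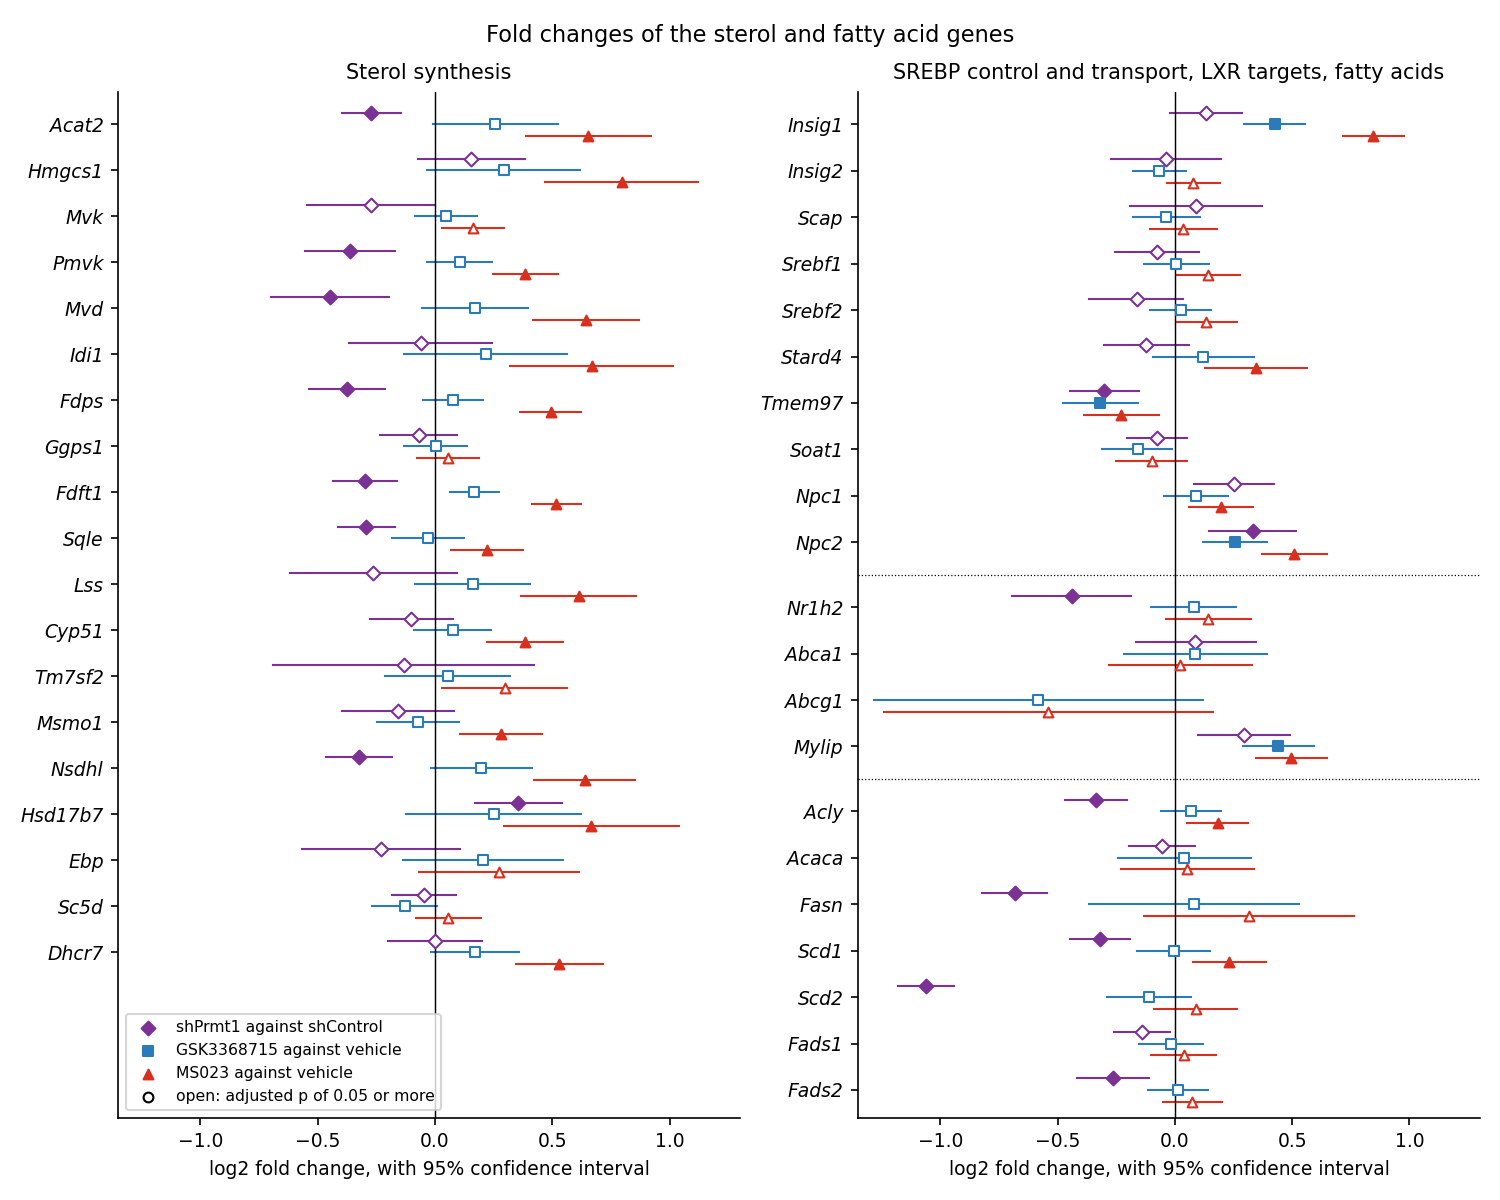
Log2 fold change with 95% confidence interval (x axis) of the 39 members tested in the knockdown (diamonds), and of all 40 with GSK3368715 (squares) and with MS023 (triangles), filled where the adjusted p was under 0.05. In the left panel all 19 MS023 points lie right of 0 and 7 filled knockdown points lie left of it. In the right panel Scd2 in the knockdown lies farthest left at -1.06.

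Other genes of these pathways, 58 in all of which 53 were tested, were called about as often as all genes. In the knockdown 7 of 53 were called (6 higher, 1 lower), 17 with MS023 (12 higher, 5 lower) and 5 with GSK3368715 (4 higher, 1 lower). These shares were 13.2%, 32.1% and 9.43%. Between the inhibitors limma called 0 of the 53, with 11 at an unadjusted p under 0.05, edgeR called 0 and DESeq2 called 6. Over all 13014 genes tested 1722 had an unadjusted p under 0.05 by limma, edgeR called 69 and DESeq2 377.

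Of 11 other isoprenoid and sterol enzymes tested, 1 rose in the knockdown, 2 rose and 2 fell with MS023, and 1 rose and 1 fell with GSK3368715. In that order the shares called were 9.09%, 36.4% and 18.2%, beside 14.7%, 27.9% and 9.64% over all genes tested. Acat1, the mitochondrial thiolase, rose in the knockdown (0.41), with MS023 (0.31) and with GSK3368715 (0.22). Aacs, which activates acetoacetate for lipid synthesis, rose with MS023 (0.55), and Coq2, a prenyltransferase of coenzyme Q synthesis, fell with MS023 (-0.72) and GSK3368715 (-0.31, a call lost in 8 of the 9 fits with a library left out).

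Of 8 genes of SREBP processing and sterol sensing, 1 rose in the knockdown, Erlin1 (0.29). That call was lost in 4 of the fits with a library left out. With MS023 2 rose and 1 fell, and with GSK3368715 1 rose. The shares called in the knockdown, with MS023 and with GSK3368715 were 12.5%, 37.5% and 12.5%, beside 14.7%, 27.9% and 9.64% over all genes tested. The proteases that cut SREBP were among the genes that rose, Mbtps1 with MS023 (0.25) and Mbtps2 with GSK3368715 (0.28, called in the full fit and in only 1 of the 9 fits with a library left out).

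Of 13 genes of sterol uptake and transport, 2 rose in the knockdown, 3 rose and 2 fell with MS023, and 1 rose with GSK3368715. In that order the shares called were 15.4%, 38.5% and 7.69%, beside 14.7%, 27.9% and 9.64% over all genes tested. Lipa, the lysosomal acid lipase that frees cholesterol from its esters, rose in the knockdown (0.58), with MS023 (0.66) and with GSK3368715 (0.43), as Npc2 did. Gramd1b, a carrier of sterol from the plasma membrane to the endoplasmic reticulum, fell with MS023 (-0.97) and Stard3 rose (0.31).

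Of 21 other lipogenesis genes tested, 2 rose and 1 fell in the knockdown, 5 rose with MS023 and 1 rose with GSK3368715. In that order the shares called were 14.3%, 23.8% and 4.76%, beside 14.7%, 27.9% and 9.64% over all genes tested. Dgat2, which completes triglyceride synthesis, rose in the knockdown by 1.01 (log2). Acsl3 rose with MS023 (0.51) and GSK3368715 (0.30, a call lost in 7 of the 9 fits with a library left out) and Acss2, which makes acetyl-CoA from acetate, with MS023 (0.45).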

How the data were processed

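Libraries of CT26 mRNA (15, in 5 groups of 3 biological replicates by the series' design) were sequenced by the authors as paired-end reads and quantified with Salmon 1.4.0 at default settings on mm10, as the paper and the submitters' processing notes state. The annotation and strand setting are not given in the sources used here. The deposited values, a normalized signal per gene, are gene counts that the authors divided by DESeq2 size factors. In every library 100% of values were whole multiples of 1 constant (tolerance 0.01 read), so whole reads could be recovered. The authors' comparison tables (fold changes and p-values) were not used.

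A gene entered a fit where 3 or more of its libraries held 10 or more normalized counts, and was tested on log2(normalized count + 1), a scale that understates changes of low genes, with limma 3.58.1 (eBayes with trend) in R 4.3.3, adjusted by Benjamini-Hochberg over all genes tested, at 0.05. The knockdown was fitted on 6 libraries and the inhibitor experiment on 9, with contrasts against vehicle and between inhibitors. Alternatives were edgeR 4.0.16 and DESeq2 1.42.0 on the recovered reads, other pseudocounts, filters and scalings, a replicate block and each library left out, after tests on simulated data. Sequences are from RefSeq (GRCm38.p6) and gene models from GENCODE M21 (mm10).

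Members and lists were chosen with earlier results of these data known. Library values are printed for the 4 members per list with the largest called change and for Hmgcs1, Sqle, Insig1, Srebf1, Srebf2, Abca1, Scd1 and Scd2. Other called members and up to 3 other pathway genes per list are named with their fold change. Library values of Fdft1 and Fdps, and single values of Lss and Ebp, were added after they were seen.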

Additional observations from a re-analysis of the deposited data

Results flagged for a closer look

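Fdps, Fdft1 and Insig1 were flagged because their responses to the inhibitors differed from each other, by the test of GSK3368715 against MS023 at the same dose and time. GSK3368715 was lower by -0.42 for Fdps, -0.35 for Fdft1 and -0.42 for Insig1 on the log2 scale (limma adjusted p = 0.02, 0.017 and 0.02), and every GSK3368715 library lay below every MS023 library. None of the 3 calls held in all alternatives that were run.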

How the results depend on the processing

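The number of members called in the knockdown (16) stayed between 13 and 17 under other pseudocounts, filters, scalings, edgeR, DESeq2, no trend and the replicate block, and ranged from 3 to 22 with a library left out. The lowest counts were without a shControl library (3, 7 and 5 for replicates 1, 2 and 3), in fits that assume the remaining libraries vary alike. With MS023 (22) the range was 15 to 23, and 15 to 22 with a library left out. With GSK3368715 (4) it was 2 with only the groups compared and 2 to 6 with a library left out, 2 without GSK3368715 replicate 2. Between the inhibitors (3) the count was 0 without a trend, 0 with the replicate block, 15 with DESeq2, 9 with only the groups compared and 0 to 7 with a library left out. Counts over all genes also shifted, between the inhibitors from 67 to 377 with DESeq2. In the knockdown they went from 1684 to between 652 and 2472 with a library left out. The cause of these shifts was not tested.

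Called in every alternative were 3 of 16 members in the knockdown (Acly, Fasn and Scd2), 14 of 22 with MS023, 2 of 4 with GSK3368715 (Insig1 and Mylip) and 0 of 3 between the inhibitors. No called value changed sign. Some values that were not called changed sign with a library left out. Their ranges were -0.23 to 0.047 for Idi1 in the knockdown, -0.15 to 0.13 for Abca1 with MS023, and -0.021 to 0.14 for Abca1 between the inhibitors. With GSK3368715 the ranges were -0.088 to 0.039 for Sqle, -0.036 to 0.049 for Srebf1, -0.026 to 0.064 for Srebf2, -0.091 to 0.20 for Abca1, -0.14 to 0.31 for Fasn and -0.048 to 0.046 for Scd1, which was at 0.0096 with equal totals. Nothing in the labels ties the replicate numbers of different groups together, and the main fits did not take the numbers as pairs. Deviations of same-numbered libraries correlated at 0.061 to 0.12 in the knockdown and those of unlike numbers at -0.094 to 0.033. There every library correlated best with its own number. With the inhibitors the values were -0.10 to 0.11 for the same number and -0.13 to 0.17 for unlike numbers. Whether same-numbered knockdown libraries shared a batch was not tested. The replicate block gave 17, 19, 3 and 0 calls among the members in the 4 comparisons, and raised those over all genes in the knockdown from 1684 to 2671.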
